A study of Mus musculus with 36 samples.

Results

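A set of 10 genes of the eosinophil, mast cell and basophil lineages was followed in dendritic cells (DCs) grown from mouse bone marrow and separated by thrombomodulin (TM) on their surface. They were the eosinophil genes *Epx*, *Prg2* and *Il5ra*, the mast cell and basophil genes *Mcpt8*, *Cpa3*, *Fcer1a* and *Ms4a2*, the receptor gene *Kit* and the transcription factor genes *Gata1* and *Gata2*. They are 10 of the 19938 genes with a transcript cluster of their own on the array, and each of the 10 had exactly 1 such cluster. The rule takes them by name and uses no measured value, but the 10 were chosen with earlier results of these data known. All values are log2 of the deposited intensity, and they compare arrays for 1 gene and not 1 gene with another.

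Every sample came from bone marrow of Balb/c mice aged 10 to 12 weeks, grown in 100 ng/ml of the growth factor GM-CSF up to the harvest on day 6. Treated cultures received soluble TM (sTM, the extracellular part of human TM, supplied as ART123) at 200 nM from day 4. Sorted DCs were TM+ DCs from sTM-treated cultures (6 arrays, experiments 2, 3 and 4), TM- DCs from sTM-treated cultures (6 arrays, the same experiments), TM+ DCs from untreated cultures (4 arrays, experiments 3 and 4) and TM- DCs from untreated cultures (4 arrays, the same experiments). Unsorted DCs were taken from sTM-treated cultures (8 arrays, experiments 1, 2 and 3) and from untreated cultures (8 arrays, the same experiments). Sorting used an antibody to TM and magnetic microbeads, with a stated purity above 93%. The labels call the arrays of 1 group within an experiment biological replicates, without saying whether these were separate cultures or mice. The p-values rest on the spread of the arrays of a group, both within and between experiments. They count each array as a replicate, with arrays of 1 experiment taken as correlated.

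Eosinophils, mast cells and basophils are granule-bearing cells of the bone marrow that act in allergy and in defence against parasites. Eosinophils depend on interleukin-5, mast cells on stem cell factor acting through its receptor KIT, and basophils and mast cells carry the high-affinity receptor for immunoglobulin E (FceRI). GATA1 and GATA2 take part in forming all 3 lineages. Cultures of bone marrow in GM-CSF are known to hold other myeloid cells beside DCs, and the RNA of each fraction was measured in bulk. A lower share of cells of a type and less RNA per cell can therefore not be told apart.

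The DC genes *Itgax*, the integrin CD11c, and *H2-Aa*, a chain of MHC class II, were at 11.72 to 12.35 and at 11.47 to 12.89 over the 36 arrays. All 17 DC genes listed were on the array, which says nothing of their expression. Others of the 17 had low values, with *Xcr1* at 5.16 to 6.20, *Flt3* at 5.61 to 6.87 and *Cd209a* at 5.82 to 7.49. *Thbd*, which codes for TM, was 5.84 to 6.26 in TM+ and 5.75 to 6.50 in TM- DCs of sTM-treated cultures, and 5.76 to 6.92 in TM+ and 5.65 to 6.06 in TM- DCs of untreated cultures. The fractions overlapped in both, and the difference of 0.24 (SE 0.12) did not pass the test (adjusted p = 0.12, limma). Among the unsorted arrays of experiment 1, arrays 1-1 and 1-2 stood apart from arrays 1-3 and 1-4 in both treatments. They lay above in both treatments for 19.3% of all genes and below for 16% of all genes. Of the 10 genes, *Epx*, *Prg2* and *Cpa3* were above and *Il5ra* below in this split. In experiment 3, the unsorted arrays of sTM-treated cultures lay above all 4 sorted arrays of these cultures for 8.81% of all genes, and *Epx* was the only one of the 10 among them. The sources used here do not say whether sorted and unsorted DCs of experiment 3 came from the same cultures, and its treatment labels could not be checked from the arrays. No detection calls entered, and a low value may be background. As a gauge, the 95th percentile of the means of 1194 olfactory and vomeronasal receptor genes was 6.26, near the values of *Thbd*.

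**Figure D1:**
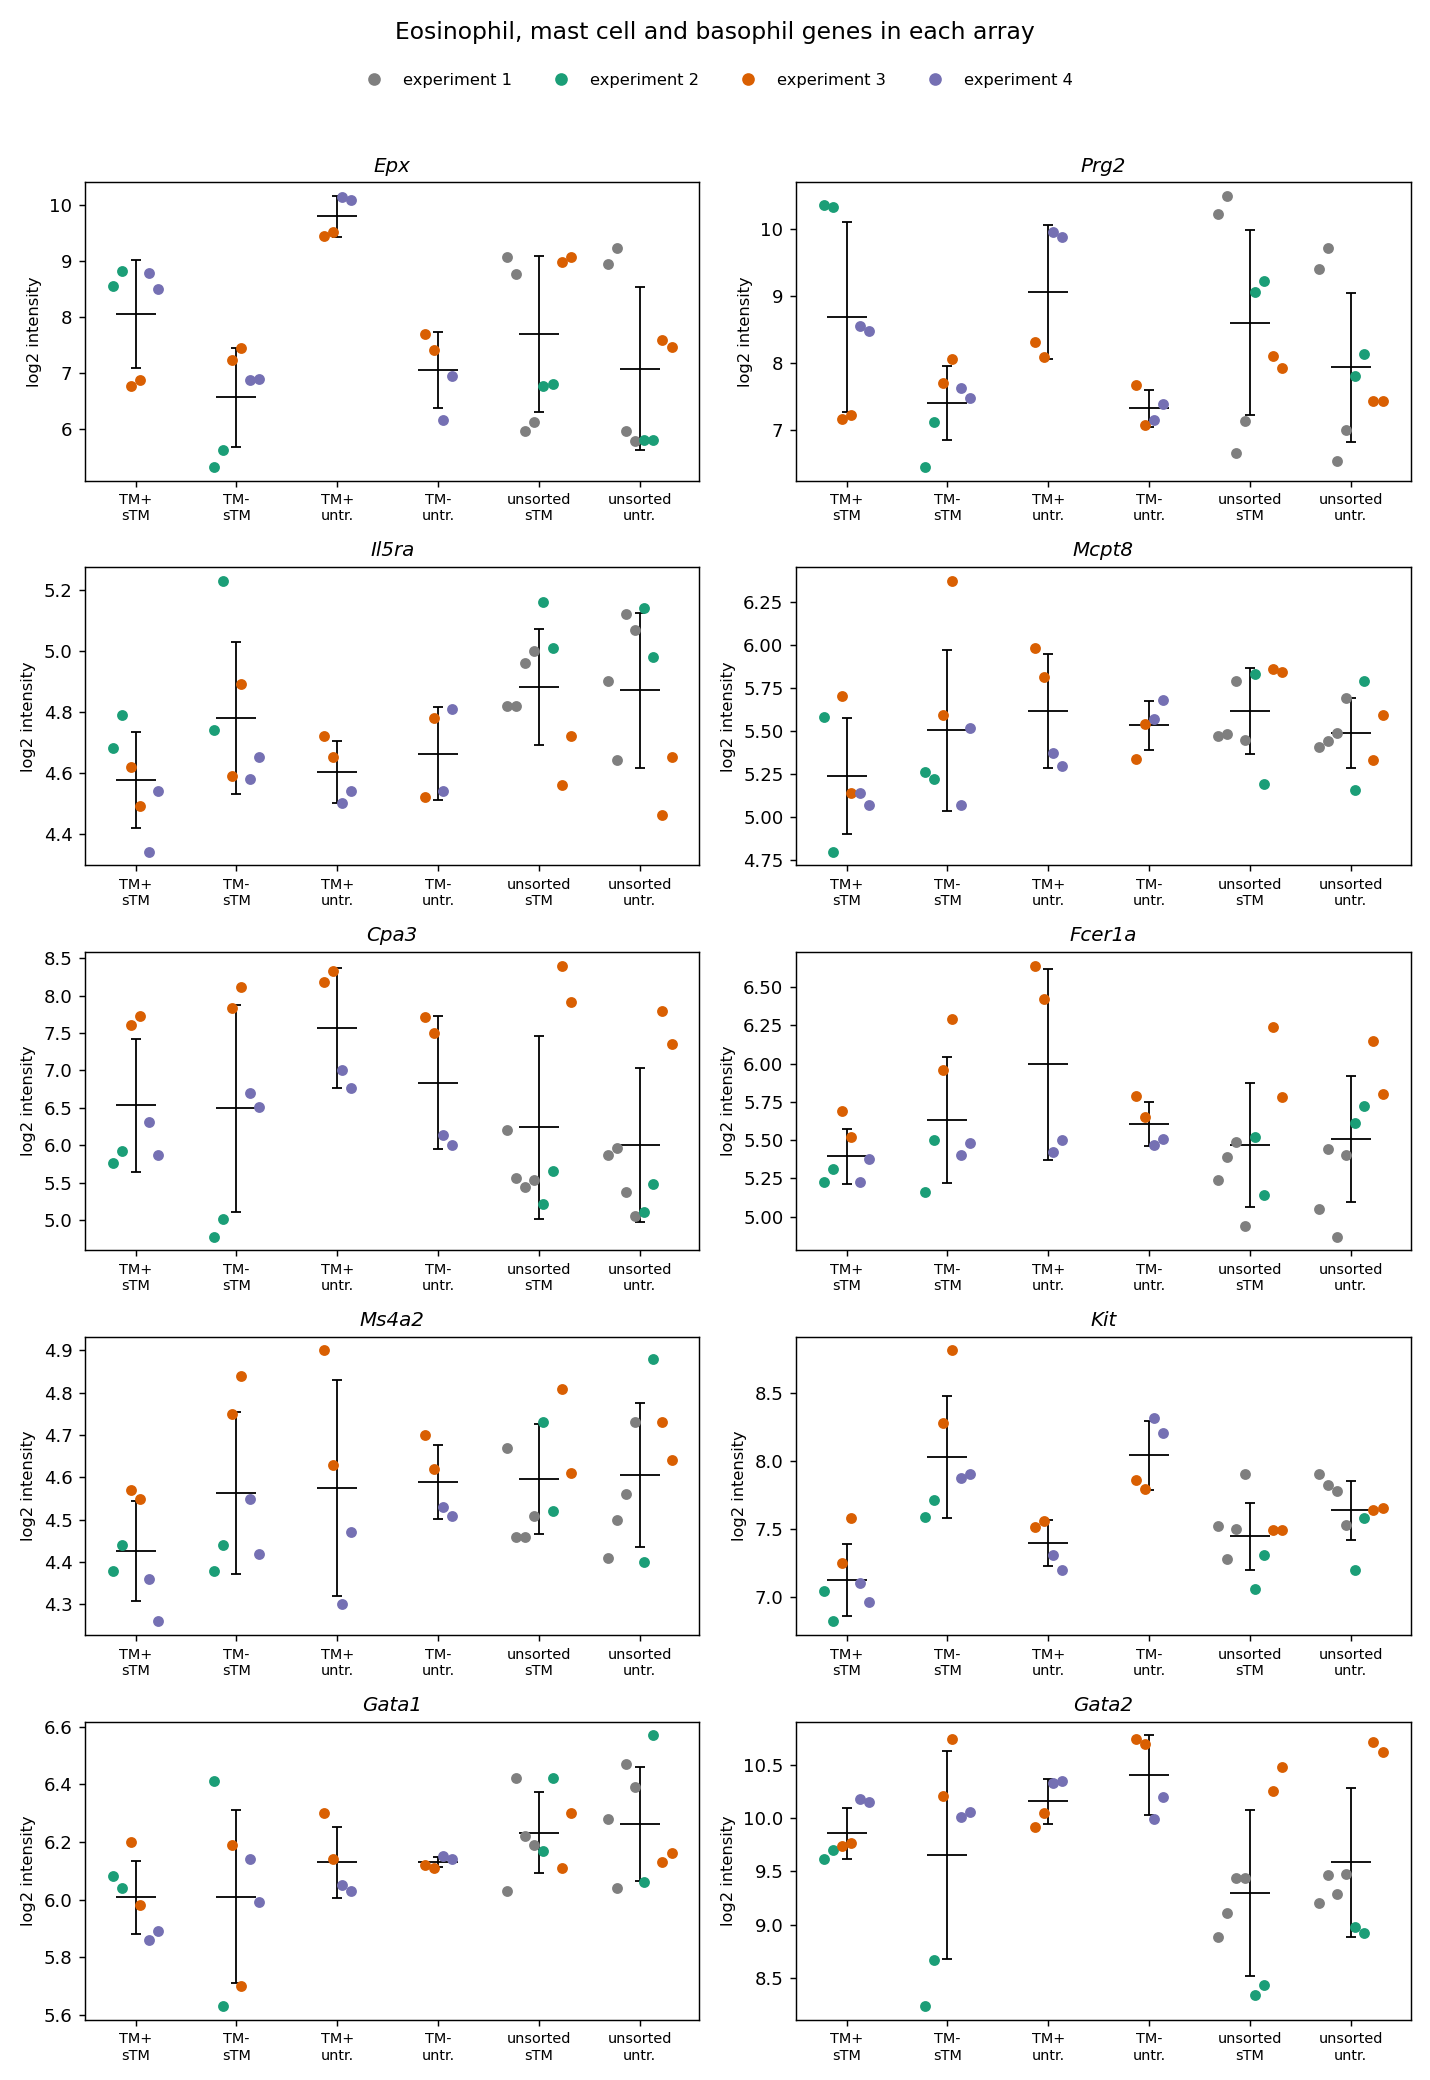
Log2 intensity of each of the 10 genes (vertical axes, 1 panel a gene, each with its own range) in the 36 arrays, by group, with points coloured by experiment and black bars for the mean and SD of a group. *Epx* in the 4 TM+ arrays of untreated cultures lay between 9.45 and 10.14, above the 4 TM- arrays at 6.16 to 7.70, and *Cpa3* was highest in experiment 3 in every group.

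Between TM+ and TM- DCs, 3 of the 10 genes differed. *Epx* and *Prg2* were higher and *Kit* was lower in TM+ DCs, whereas *Il5ra*, *Mcpt8*, *Cpa3*, *Fcer1a*, *Ms4a2*, *Gata1* and *Gata2* did not pass the test. Differences are those of a model across all genes with the experiment as a random block (limma, p-values adjusted over 19938 genes by the Benjamini-Hochberg method, called under 0.05), averaged over sTM-treated and untreated cultures. Of all genes, 37.3% were called in this comparison, 18.6% higher and 18.7% lower, so that 3 of 10 is a share near that of all genes. The median difference of the 10 was -0.01, against -0.08 over all genes. In sTM-treated cultures alone (24% of all genes called, 11.6% higher and 12.4% lower) and in untreated cultures alone (21.1% of all genes called, 13.2% higher and 7.93% lower), the same 3 genes were called, in the same directions. At an unadjusted p under 0.05 there were 3 of the 10 over all cultures (47.9% of all genes), 4 in sTM-treated cultures (39.2% of all genes) and 4 in untreated cultures (31.5% of all genes).

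*Epx* codes for eosinophil peroxidase, an enzyme of the eosinophil granule. In sTM-treated cultures, TM+ DCs had a lowest value of 6.76, a median of 8.52 and a highest of 8.82, against 5.32, 6.89 and 7.44 in TM- DCs. In untreated cultures, the 4 TM+ arrays had 9.45, 9.51, 10.14 and 10.08, against 7.70, 7.41, 6.16 and 6.94 in the TM- arrays. The fractions did not overlap in untreated cultures and overlapped in sTM-treated ones. Fractions that did not overlap were seen in sTM-treated cultures for 1 of the 10 genes, *Kit* (5.37% of all genes, 3.28% higher and 2.09% lower), and in untreated cultures for 3 of the 10, *Epx*, *Prg2* and *Kit* (22.8% of all genes, 12.7% higher and 10.1% lower).

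The fitted difference of *Epx* was 2.11 (SE 0.32, 4.32-fold, adjusted p = 1.99e-05). It was 1.48 (SE 0.40, adjusted p = 0.0103) in sTM-treated cultures and 2.74 (SE 0.49, adjusted p = 0.000307) in untreated cultures. The difference was not alike in each experiment. In experiment 2, TM+ DCs of sTM-treated cultures had 8.55 and 8.82, against 5.32 and 5.62 in TM- DCs, and in experiment 4 they had 8.78 and 8.50, against 6.88 and 6.90. In experiment 3 the order was turned, with 6.76 and 6.87 in TM+ DCs of sTM-treated cultures and 7.23 and 7.44 in TM- DCs. Both unsorted arrays of those cultures, at 8.98 and 9.07, lay above all 4 sorted ones. The call within sTM-treated cultures was lost without experiment 2 (0.61, adjusted p = 0.264) or experiment 4 (1.35, adjusted p = 0.107), and that within untreated cultures without experiment 4 (1.92, adjusted p = 0.161). With the arrays of a group averaged within each experiment, both were lost, in sTM-treated (1.48, adjusted p = 0.202) and in untreated cultures (2.74, adjusted p = 0.0964).

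*Prg2* codes for major basic protein, the toxic cationic protein of the eosinophil granule core. In sTM-treated cultures, TM+ DCs had a lowest value of 7.16, a median of 8.51 and a highest of 10.36, against 6.44, 7.54 and 8.05 in TM- DCs. In untreated cultures, the TM+ arrays had 8.31, 8.08, 9.95 and 9.88, against 7.67, 7.07, 7.14 and 7.38 in the TM- arrays. As with *Epx*, the fractions were apart in untreated cultures and overlapped in sTM-treated ones.

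The fitted difference of *Prg2* was 1.51 (SE 0.35, 2.86-fold, adjusted p = 0.00181), with 1.29 (SE 0.44, adjusted p = 0.0391) in sTM-treated and 1.74 (SE 0.54, adjusted p = 0.0247) in untreated cultures. By experiment, the difference in sTM-treated cultures was 3.57 in experiment 2, -0.68 in experiment 3 and 0.97 in experiment 4, and in untreated cultures it was 0.82 in experiment 3 and 2.65 in experiment 4. TM+ DCs of sTM-treated cultures in experiment 3 were thus below TM- DCs for both granule genes, with 7.16 and 7.22 against 7.69 and 8.05 for *Prg2*. Without experiment 4 the call over all cultures was lost (1.14, adjusted p = 0.208), as it was with the arrays of a group averaged within each experiment (1.51, adjusted p = 0.0978). The call in sTM-treated cultures rested on every sorted sTM-treated array of experiments 2 and 4, since leaving out any 1 of these 8 ended it (adjusted p up to 0.107), and without experiment 2 the difference was 0.15 (adjusted p = 0.765). In untreated cultures, leaving out any 1 of the 4 arrays of experiment 4 ended the call (adjusted p up to 0.0956), and without that experiment the difference was 0.82 (adjusted p = 1).

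*Il5ra* codes for the specific chain of the interleukin-5 receptor, through which eosinophils receive their main growth signal. TM+ DCs of sTM-treated cultures had a lowest value of 4.34, a median of 4.58 and a highest of 4.79, against 4.58, 4.69 and 5.23 in TM- DCs. The TM+ arrays of untreated cultures had 4.72, 4.65, 4.50 and 4.54, against 4.52, 4.78, 4.54 and 4.81 in the TM- arrays. Its values spanned 0.89 over all 36 arrays and the fractions overlapped in both treatments. The difference of -0.13 (SE 0.07, 95% interval -0.28 to 0.02) did not pass the test (adjusted p = 0.151), although it was called at -0.21 (adjusted p = 0.0396) when each array was centred on its 75th percentile.

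**Figure D2:**
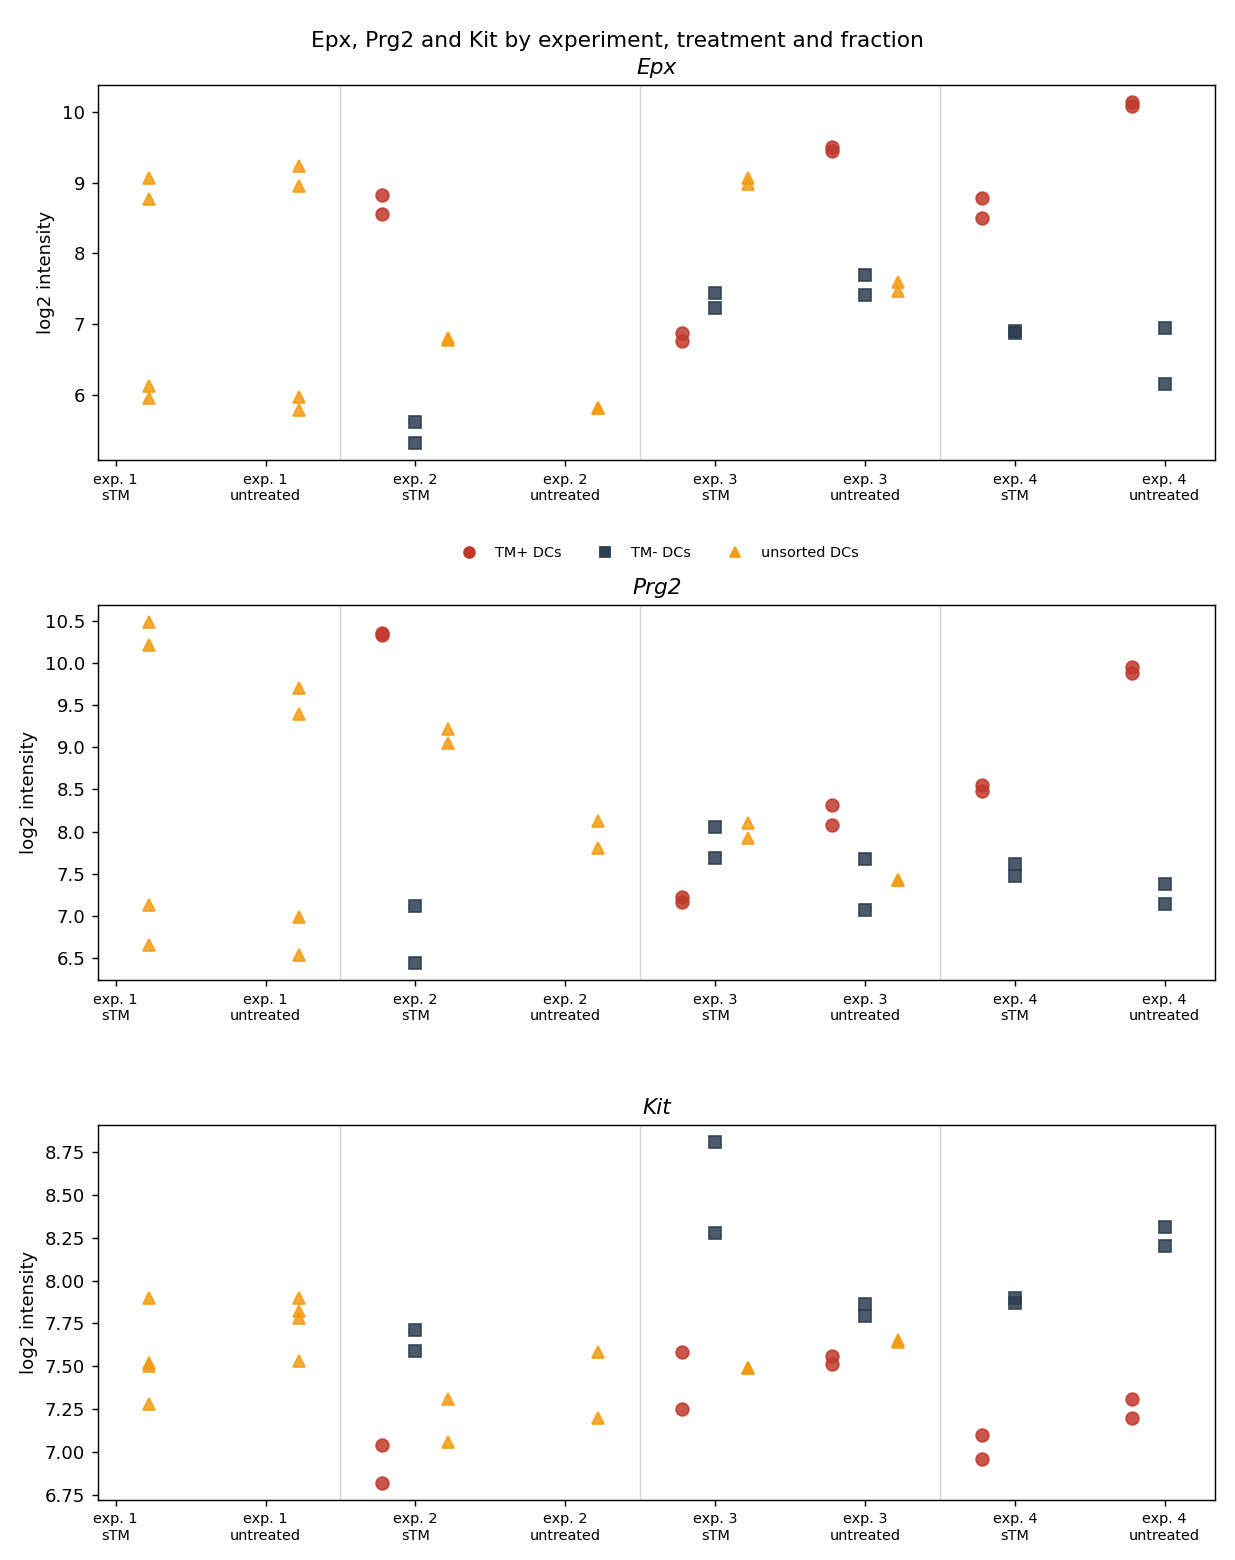
Log2 intensity of *Epx*, *Prg2* and *Kit* (vertical axes) by experiment and treatment (horizontal axis), with 1 point an array for TM+, TM- and unsorted DCs. For *Epx* and *Prg2*, TM+ arrays lay above TM- arrays in 4 of the 5 combinations that hold both fractions and below them in sTM-treated cultures of experiment 3, whereas *Kit* was lower in the TM+ arrays of all 5.

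Other markers of eosinophils and neutrophils were for the most part also higher in TM+ DCs, beside 18.6% of all genes called higher and 18.7% lower. Of 16 basophil genes, 3 were higher, a share near that of all genes, and 6 were lower. Of 16 further eosinophil genes listed, 11 were measured and 5 were not. Of the 11, 9 were higher in TM+ DCs and none was lower, with a median of 0.96. *Alox15*, an arachidonate lipoxygenase also made by mouse peritoneal macrophages, was higher by 2.86 (SE 0.13, adjusted p = 2.75e-12), *F5*, coagulation factor V, by 1.82 (SE 0.16, adjusted p = 1.63e-08), and *Pglyrp1*, a granule protein also held by neutrophils, by 1.23 (SE 0.11, adjusted p = 2.24e-08). These 3 were named for the smallest adjusted p of the list, which was drawn up with earlier results of these data known. The study had already reported *Alox15* and *F5* as higher in TM+ DCs from its arrays. *Siglecf*, a lectin of the eosinophil surface, and *Ccr3*, the eotaxin receptor, were chosen after their values were seen. *Siglecf* was higher by 1.95 (SE 0.19, adjusted p = 9.88e-08) and *Ccr3* by 0.96 (SE 0.12, adjusted p = 2.17e-06). Unlike *Epx* and *Prg2*, both were higher in TM+ arrays in 5 of 5 combinations of experiment and treatment, with the smallest differences in sTM-treated cultures of experiment 3 (0.66 for *Siglecf* and 0.42 for *Ccr3*). In those cultures, where *Epx* and *Prg2* were lower in TM+ DCs, the mean of the 11 genes was 8.40 to 8.46 in TM+ and 7.62 to 7.81 in TM- arrays.

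Of 16 neutrophil and granule genes, 10 were higher in TM+ DCs (18.6% of all genes) and 2 were lower (18.7% of all genes), with a median of 0.56. Their mean level ran from 8.29 to 9.39 over the TM+ arrays and from 7.98 to 8.74 over the TM- arrays of sTM-treated cultures, and from 9.17 to 9.74 over the TM+ and from 8.23 to 8.80 over the TM- arrays of untreated cultures. *Cxcr2*, the neutrophil chemokine receptor, was higher by 2.48 (SE 0.28, adjusted p = 4.95e-07) and *Ltf*, lactoferrin, by 1.92 (SE 0.25, adjusted p = 4.58e-06), while *Mmp9*, gelatinase B, was lower (-1.84, SE 0.24, adjusted p = 3.49e-06). Of 10 macrophage and monocyte genes, 7 were higher and none was lower, among them *Ccr2* (4.04, SE 0.15, adjusted p = 1.20e-13). In sTM-treated cultures of experiment 3, where *Epx* and *Prg2* were lower in TM+ DCs, the neutrophil mean was 8.29 to 8.30 in TM+ and 7.98 to 8.05 in TM- arrays. The part of these other cell types in the *Epx* and *Prg2* differences was not tested.

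*Cpa3* codes for carboxypeptidase A3, a protease of mast cell granules that basophils also make. In sTM-treated cultures, TM+ DCs had a lowest value of 5.77, a median of 6.12 and a highest of 7.72, against 4.78, 6.61 and 8.11 in TM- DCs. In untreated cultures, the TM+ arrays had 8.18, 8.33, 7.0 and 6.77, against 7.71, 7.50, 6.14 and 6.00 in the TM- arrays. The fractions overlapped in both treatments, and the experiments lay far apart. All 12 arrays of experiment 3 had 7.35 to 8.40, above the other 24 arrays at 4.78 to 7.0, which held for 0.833% of all genes.

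The difference of *Cpa3* between TM+ and TM- DCs was 0.38 (SE 0.23, 95% interval -0.09 to 0.86) and did not pass the test (adjusted p = 0.181). In untreated cultures it was 0.73 (SE 0.35, adjusted p = 0.163), with 0.65 in experiment 3 and 0.81 in experiment 4. With the experiment as a fixed factor, *Cpa3* was called over all cultures (0.38, adjusted p = 0.0306) and in untreated ones (0.73, adjusted p = 0.0145). In sTM-treated cultures the difference was 0.95 in experiment 2, -0.31 in experiment 3 and -0.52 in experiment 4, and in each of the 3 the arrays of the fractions did not overlap.

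*Mcpt8* codes for a basophil protease of the mouse. TM+ DCs of sTM-treated cultures had a lowest value of 4.80, a median of 5.14 and a highest of 5.70, against 5.07, 5.39 and 6.37 in TM- DCs. The TM+ arrays of untreated cultures had 5.98, 5.81, 5.37 and 5.30, against 5.34, 5.54, 5.57 and 5.68 in the TM- arrays. The fractions overlapped in both treatments. The difference was -0.09 (SE 0.13, 95% interval -0.36 to 0.18, adjusted p = 0.578), and in untreated cultures it was 0.45 in experiment 3 and -0.29 in experiment 4.

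*Fcer1a* and *Ms4a2* code for the alpha and beta chains of FceRI, of which the alpha chain binds immunoglobulin E. For *Fcer1a*, TM+ DCs of sTM-treated cultures had a lowest value of 5.23, a median of 5.34 and a highest of 5.69, against 5.16, 5.49 and 6.29 in TM- DCs. In untreated cultures, the TM+ arrays had 6.64, 6.42, 5.42 and 5.50, against 5.79, 5.65, 5.47 and 5.51 in the TM- arrays. The pair of untreated TM+ arrays of experiment 3 thus stood above the rest, and the fractions overlapped in both treatments. The *Fcer1a* difference was 0.39 (SE 0.16, adjusted p = 0.102) in untreated cultures and -0.24 (SE 0.13, adjusted p = 0.186) in sTM-treated ones. In untreated cultures it was called without experiment 4 (0.81, adjusted p = 0.0336), without 1 array of experiment 4 (adjusted p = 0.0478) and after quantile normalization (0.43, adjusted p = 0.0446), and it was -0.03 in experiment 4 itself.

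For *Ms4a2*, TM+ DCs of sTM-treated cultures had a lowest value of 4.26, a median of 4.41 and a highest of 4.57, against 4.38, 4.50 and 4.84 in TM- DCs. The TM+ arrays of untreated cultures had 4.90, 4.63, 4.30 and 4.47, against 4.70, 4.62, 4.53 and 4.51 in the TM- arrays. Its 36 values spanned 0.64 and its fractions overlapped. The difference was -0.08 (SE 0.06, 95% interval -0.20 to 0.05, adjusted p = 0.306).

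By the median of the arrays, *Cpa3* stood furthest above the other experiments in experiment 3 (7.81 against 5.82). *Gata2* (10.37 against 9.46), *Epx* (7.53 against 6.89) and *Fcer1a* (5.88 against 5.40) followed. *Mcpt8* (5.65 against 5.44), *Ms4a2* (4.67 against 4.47) and *Kit* (7.61 against 7.52) were higher by little. *Prg2* (7.68 against 8.30) and *Il5ra* (4.64 against 4.81) were lower, and *Gata1* had 6.14 in both. The share of all genes with a higher median in experiment 3 is not given here. The mix of TM+, TM- and unsorted arrays also differed between experiment 3 and the others.

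GATA factors bind a short motif with the core GATA, and promoters of the 3 mast cell and basophil genes that held it are shown. The letters searched were AGATAA, or its variant AGATAG, and likewise TGATAA, or its variant TGATAG, on both strands, in windows from 250 bases before to 50 bases after the start of a gene (RefSeq, GRCm38.p6), and 29.8% of all 32851 windows held at least 1 match. Of the 9 genes with a window, 4 held one, *Il5ra*, *Cpa3*, *Fcer1a* and *Ms4a2*, and the windows of *Epx*, *Mcpt8*, *Kit*, *Gata1* and *Gata2* held none of these letters. Genes with and without a match were both found among those higher in experiment 3, and *Il5ra*, with a match, was lower there. A link between a match and the level in an experiment was not tested. With the first base of the gene counted as 0, the match of *Cpa3* began at -46 and that of *Fcer1a* at -92, and the 3 matches of *Ms4a2* began at -224, -37 and -11. In the sequences, written 5′ to 3′ on the strand of the gene, capitals mark the matches, and the window of *Epx*, the gene with the widest range over the arrays, is shown beside them.
Cpa3 (chr3:20242132-20242431, minus strand): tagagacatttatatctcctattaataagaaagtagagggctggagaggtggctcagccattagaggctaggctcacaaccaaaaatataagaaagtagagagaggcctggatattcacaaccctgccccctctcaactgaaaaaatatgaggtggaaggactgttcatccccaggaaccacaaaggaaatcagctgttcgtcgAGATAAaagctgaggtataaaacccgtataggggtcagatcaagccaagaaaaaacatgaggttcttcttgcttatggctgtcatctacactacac
Fcer1a (chr1:173227180-173227479, minus strand): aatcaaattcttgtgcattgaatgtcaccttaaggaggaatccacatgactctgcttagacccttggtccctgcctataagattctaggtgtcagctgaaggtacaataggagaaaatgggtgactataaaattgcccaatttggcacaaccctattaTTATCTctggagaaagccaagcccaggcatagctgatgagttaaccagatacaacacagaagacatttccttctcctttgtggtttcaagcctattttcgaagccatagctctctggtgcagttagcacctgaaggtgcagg
Ms4a2 (chr19:11623670-11623969, minus strand): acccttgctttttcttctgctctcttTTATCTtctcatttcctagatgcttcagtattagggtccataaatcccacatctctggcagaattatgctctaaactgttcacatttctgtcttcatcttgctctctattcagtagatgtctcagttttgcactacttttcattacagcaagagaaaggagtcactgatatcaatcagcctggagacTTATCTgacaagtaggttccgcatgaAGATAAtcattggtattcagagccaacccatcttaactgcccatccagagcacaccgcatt
Epx (chr11:87875487-87875786, minus strand): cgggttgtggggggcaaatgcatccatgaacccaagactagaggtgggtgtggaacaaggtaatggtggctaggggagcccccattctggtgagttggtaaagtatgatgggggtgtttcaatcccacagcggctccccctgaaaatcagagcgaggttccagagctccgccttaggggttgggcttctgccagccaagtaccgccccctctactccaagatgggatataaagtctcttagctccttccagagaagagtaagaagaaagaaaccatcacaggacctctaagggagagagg
A match in these windows is a description of the sequence, and binding was not measured.

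*Kit* codes for the receptor of stem cell factor, which mast cells and blood cell progenitors carry. TM+ DCs of sTM-treated cultures had a lowest value of 6.82, a median of 7.07 and a highest of 7.58, against 7.59, 7.89 and 8.81 in TM- DCs. The TM+ arrays of untreated cultures had 7.51, 7.56, 7.31 and 7.20, against 7.86, 7.79, 8.31 and 8.20 in the TM- arrays. All 10 TM+ arrays were thus below all 10 TM- arrays, with 7.58 as the highest TM+ and 7.59 as the lowest TM- value. Fractions were apart over all 20 arrays for 3.17% of all genes, 2.2% higher and 0.973% lower, and for *Kit* alone among the 10.

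The fitted difference of *Kit* was -0.77 (SE 0.11, 1.71-fold lower in TM+ DCs, adjusted p = 1.55e-05). It was -0.90 (SE 0.14, adjusted p = 0.000106) in sTM-treated cultures, with -0.73, -1.13 and -0.85 in experiments 2, 3 and 4. In untreated cultures it was -0.64 (SE 0.18, adjusted p = 0.0105), with -0.29 in experiment 3 and -1.0 in experiment 4. TM+ arrays were lower in all 5 combinations of experiment and treatment, which held for 4.58% of all genes, while 6.59% of all genes were higher in all 5. The call in untreated cultures was lost without experiment 4 (-0.29, adjusted p = 0.888), without either TM- array of it (adjusted p up to 0.063) and with no experiment term (adjusted p = 0.0573). With arrays averaged within each experiment, both calls were lost, in sTM-treated (-0.90, adjusted p = 0.0661) and in untreated cultures (-0.64, adjusted p = 0.231). The window of *Kit* is shown as that of the one gene of the 10 that was lower in TM+ DCs, and it holds no match to the 4 motifs.
Kit (chr5:75574737-75575036, plus strand): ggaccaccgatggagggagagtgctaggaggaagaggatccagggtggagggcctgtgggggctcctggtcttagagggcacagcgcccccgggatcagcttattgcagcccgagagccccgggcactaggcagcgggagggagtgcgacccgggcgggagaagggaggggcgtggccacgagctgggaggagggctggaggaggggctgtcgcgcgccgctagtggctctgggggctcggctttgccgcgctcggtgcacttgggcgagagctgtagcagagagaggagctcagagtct

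*Gata1* codes for a transcription factor needed by eosinophils, mast cells and red cell precursors. TM+ DCs of sTM-treated cultures had a lowest value of 5.86, a median of 6.01 and a highest of 6.20, against 5.63, 6.07 and 6.41 in TM- DCs. The TM+ arrays of untreated cultures had 6.30, 6.14, 6.05 and 6.03, against 6.12, 6.11, 6.15 and 6.14 in the TM- arrays. The ranges overlapped, and the difference was 0.00 (SE 0.09, 95% interval -0.18 to 0.18, adjusted p = 0.993), at values that may be background.

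*Gata2* codes for a transcription factor of blood progenitors that mast cells and basophils keep. In sTM-treated cultures, TM+ DCs had a lowest value of 9.62, a median of 9.75 and a highest of 10.18, against 8.23, 10.03 and 10.75 in TM- DCs. In untreated cultures, the TM+ arrays had 9.92, 10.05, 10.33 and 10.35, against 10.75, 10.70, 9.99 and 10.20 in the TM- arrays. The range of TM- DCs enclosed that of TM+ DCs in sTM-treated cultures. The difference was -0.02 (SE 0.19, 95% interval -0.42 to 0.38, adjusted p = 0.933), and the experiments went opposite ways. In sTM-treated cultures it was 1.21 in experiment 2, -0.73 in experiment 3 and 0.13 in experiment 4, and in untreated cultures it was -0.74 in experiment 3 and 0.25 in experiment 4. Without experiment 3, *Gata2* was called higher in TM+ DCs of sTM-treated cultures (0.67, adjusted p = 0.0372).

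**Figure D3:**
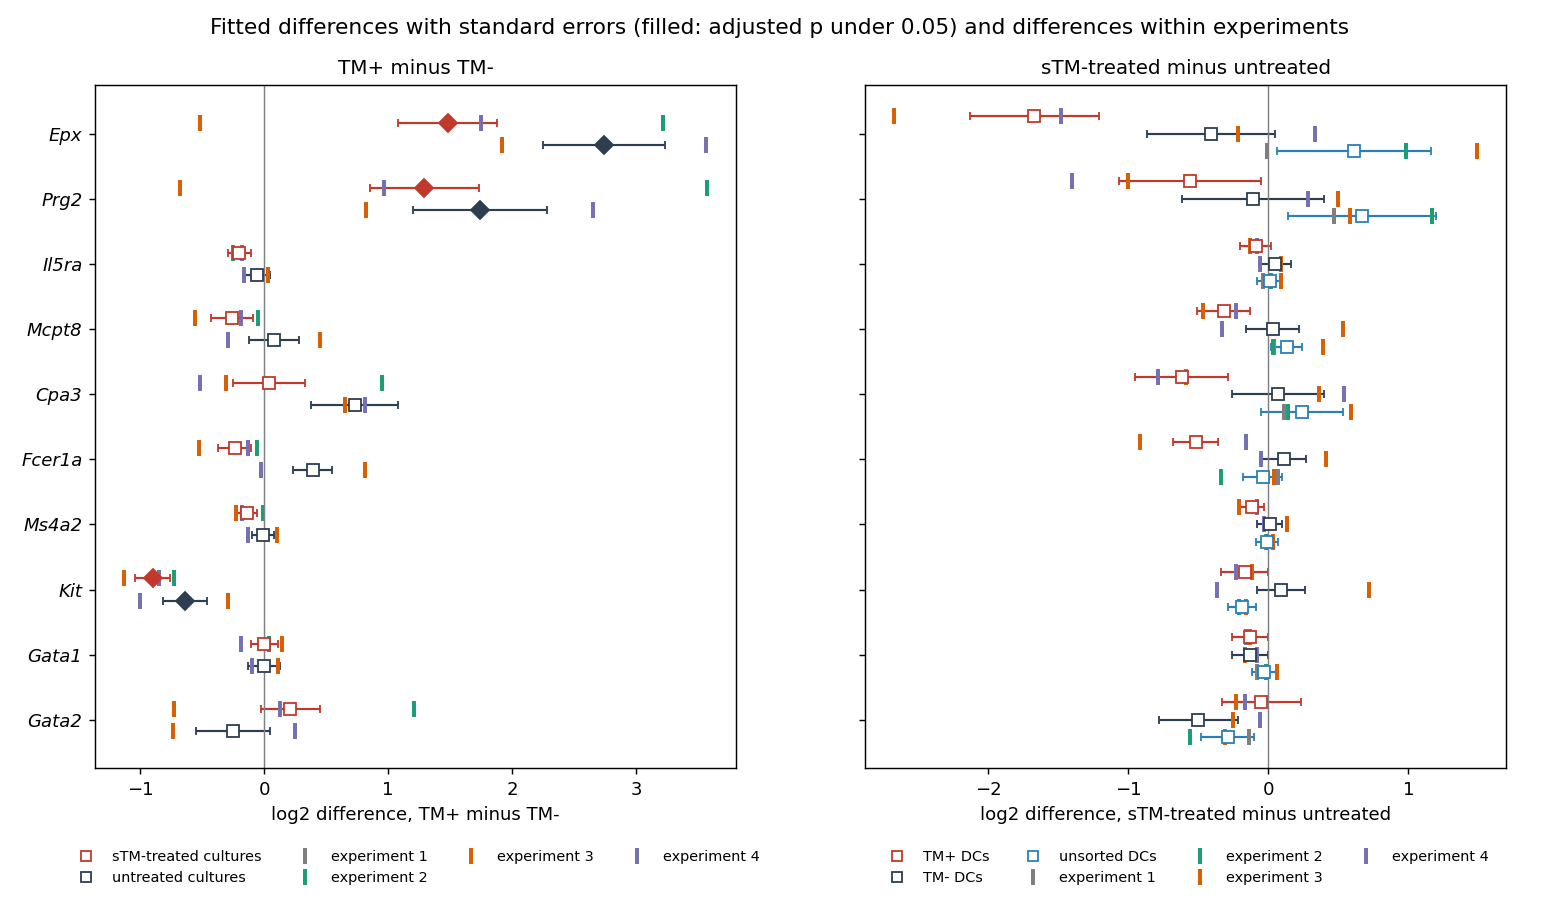
Fitted log2 differences with standard errors (squares, or filled diamonds where the adjusted p was under 0.05) for TM+ minus TM- DCs on the left and sTM-treated minus untreated cultures on the right, with ticks for the difference of means within each experiment. Filled symbols are seen for *Epx*, *Prg2* and *Kit* in the left panel and for no gene in the right panel.

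For sTM-treated against untreated cultures, none of the 10 genes was called in any of the 3 kinds of sample by limma. Of all genes, 0.853% were called in TM+ DCs, 0% in TM- DCs, 0.015% in sorted DCs of both fractions (0.01% higher and 0.00502% lower) and 0% in unsorted DCs. At an unadjusted p under 0.05 there were 2 of the 10 in TM+ DCs (10.2% of all genes), 0 of the 10 in TM- DCs (3.62%), 1 of the 10, *Epx*, in sorted DCs of both fractions (8.06%) and 0 of the 10 in unsorted DCs (4.71%). The 2 in TM+ DCs were *Epx*, at -1.67 (SE 0.46, adjusted p = 0.0999), and *Fcer1a*, at -0.52 (SE 0.16, adjusted p = 0.135).

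In TM+ DCs, *Epx* had a lowest value of 6.76, a median of 8.52 and a highest of 8.82 in sTM-treated cultures, against 9.45, 9.80 and 10.14 in untreated ones. The groups did not overlap, and *Epx* was the only one of the 10 for which this held (0.988% of all genes higher and 1.49% lower). In TM- DCs the treatments overlapped for all 10 genes, beside 0.356% of all genes apart in the higher and 0.381% in the lower direction. In TM+ DCs the difference of *Epx* was -2.67 within experiment 3 and -1.48 within experiment 4, against -0.22 and 0.33 in TM- DCs, and experiment 2 held no untreated sorted DCs. The fitted differences of all 10 genes were below 0 in TM+ DCs, with a median of -0.24 against -0.02 over all genes. The difference of means was also below 0 in both experiments 3 and 4 for 10 of the 10 genes, which held for 34.4% of all genes. Some of these differences were small and at values that may be background, as for *Il5ra* (-0.13 and -0.08) and *Gata1* (-0.13 and -0.16). In TM- DCs, 2 of the 10 were lower in both experiments (16.6% of all genes) and 2 were higher in both (27.2% of all genes). The same arrays of an experiment enter each gene's value, so that the 10 are not independent.

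The difference of treatment effects between TM+ and TM- DCs, the interaction, was called for none of the 10 by limma, and for 0.01% of all genes. *Fcer1a* was the one gene with an unadjusted p under 0.05 (6.15% of all genes), at -0.63 (SE 0.21, adjusted p = 0.497). In TM+ DCs its differences were -0.92 within experiment 3 and -0.16 within experiment 4, against 0.41 and -0.05 in TM- DCs. For *Epx* the interaction was -1.26 (SE 0.63, 95% interval -2.57 to 0.05, adjusted p = 0.813), and for *Kit* -0.26 (SE 0.23, 95% interval -0.73 to 0.21, adjusted p = 0.948). Without experiment 4, *Fcer1a* was called lower by sTM in TM+ DCs (-0.87, adjusted p = 0.0214).

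In unsorted DCs, *Epx* had a lowest value of 5.96, a median of 7.79 and a highest of 9.07 in sTM-treated cultures, against 5.79, 6.72 and 9.24 in untreated ones. *Prg2* had 6.65, 8.57 and 10.49 in sTM-treated cultures, against 6.53, 7.61 and 9.71 in untreated ones. The groups overlapped for both genes. The differences were 0.61 (SE 0.55, adjusted p = 0.999) for *Epx* and 0.67 (SE 0.53, adjusted p = 0.999) for *Prg2*. Within experiments, *Epx* differed by -0.01, 0.98 and 1.49 in experiments 1, 2 and 3, and *Prg2* by 0.47, 1.17 and 0.58. The mean of *Prg2* was thus higher in sTM-treated cultures in each of the 3 experiments. Set side by side by array number, which the labels do not say pairs them, *Prg2* was higher with sTM in 8 of 8 (by 0.12 to 1.25) and *Epx* in 6 of 8. *Prg2* was the only one of the 10 higher in every one, beside 0.968% of all genes.

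In experiment 1, both genes differed most between the sets of arrays that stood apart. *Epx* was 9.07 and 8.77 in arrays 1-1 and 1-2 of sTM-treated cultures and 8.95 and 9.24 in those of untreated cultures, whereas arrays 1-3 and 1-4 had 5.96 and 6.12 in sTM-treated and 5.97 and 5.79 in untreated cultures. *Prg2* was 10.22 and 10.49 in arrays 1-1 and 1-2 of sTM-treated and 9.40 and 9.71 of untreated cultures, and 6.65 and 7.13 in arrays 1-3 and 1-4 of sTM-treated and 6.53 and 6.99 of untreated cultures. Within arrays 1-1 and 1-2, *Prg2* was higher in both arrays of sTM-treated cultures than in both of untreated ones, whereas *Epx* overlapped. The mean of the 11 further eosinophil genes ran from 7.17 to 9.0 over the sTM-treated and from 7.18 to 8.49 over the untreated arrays of this experiment. *Kit* was 7.06 to 7.90 in unsorted DCs of sTM-treated cultures and 7.20 to 7.90 in those of untreated ones, with a difference of -0.19 (SE 0.10, adjusted p = 0.999). The other 7 genes had differences from -0.29 for *Gata2* to 0.24 for *Cpa3*.

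Over the 36 arrays, the 10 genes did not vary as 1 group. As a description, with arrays of 1 experiment not independent of each other, *Epx* and *Prg2* had a Pearson correlation of 0.73, and 0.91 once the mean of each experiment was removed from each gene. *Cpa3* correlated with *Fcer1a* and with *Gata2* at 0.76 each, and at 0.29 and 0.14 once experiment means were removed. With *Epx* and *Prg2* it correlated at 0.48 and -0.07 over all arrays, and at 0.72 for each once experiment means were removed. Removing these means leaves the split inside experiment 1, where *Epx*, *Prg2* and *Cpa3* were all higher in arrays 1-1 and 1-2. The split thus enters these values and those given below as within experiments, and its part in them was not tested. *Il5ra* correlated at -0.66 with *Gata2*, at -0.61 with *Cpa3* and at -0.53 with *Epx*, and at -0.11, -0.31 and -0.45 once experiment means were removed.

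The genes most like *Epx* over the 36 arrays were *P2ry13* (Pearson 0.94), *Kmo* (0.92) and *Asb2* (0.88), each at 0.91 or above within experiments. Those most like *Prg2* were *Lbr*, *Ddx39a* and *Enoph1*, at 0.87 each. For *Kit* they were *Il15ra* (0.84), *S1pr3* (0.83) and *Stat5a* (0.83). For *Cpa3*, *Lrrc61* (0.94), *Snx12* (0.93) and *Ubap2l* (0.93) came first, with 0.24, 0.51 and 0.34 within experiments, and for *Gata2*, *Elk3*, *Proser1* and *Adam19* did, at 0.91 each, with 0.66, 0.63 and 0.58 within experiments. For *Fcer1a* the 3 were *Hcst* (0.82), *Deaf1* (0.80) and *Sfi1* (0.80), with 0.42, 0.43 and 0.42 within experiments, and for *Il5ra* *Kcnh1* (0.90), *Bmper* (0.90) and *Fzd5* (0.88). *Ms4a2* was closest to *Tshr* (0.74), *Tph1* (0.69) and *Vmn1r80* (0.68), *Mcpt8* to *Vmn1r80* (0.81), *Tchhl1* (0.70) and *Mzb1* (0.70), and *Gata1* to *Mir665* (0.73), *Mfap2* (0.71) and *Cyp2c23* (0.70).

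Further genes of the same pathways were read between TM+ and TM- DCs from lists that leave out the 10, beside 18.6% of all genes called higher and 18.7% lower. Of 22 mast cell genes, 6 were higher and 2 lower, with a median of -0.05. *Mcpt2*, a mucosal mast cell protease, was higher by 1.67 (SE 0.31, adjusted p = 0.000184), with 0.16 (adjusted p = 0.773) in sTM-treated and 3.19 (adjusted p = 4.83e-05) in untreated cultures, and *Hpgds*, the prostaglandin D2 synthase of mast cells and other blood cells, by 0.88 (SE 0.13, adjusted p = 2.10e-05), with 0.21 (adjusted p = 0.349) in sTM-treated and 1.55 (adjusted p = 1.31e-05) in untreated cultures. *Hdc*, which makes histamine, was at -2.51 (SE 0.30, adjusted p = 1.15e-06) and so lower in TM+ DCs. Of 16 basophil genes, 3 were higher and 6 lower, with *Cd200r4* at 1.5 (SE 0.17, adjusted p = 4.79e-07) and *Cd200r3* at 1.73 (SE 0.23, adjusted p = 6.34e-06), receptors of the CD200 receptor family, and *Hdc* again among the lower ones.

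Of 13 genes of FceRI signalling, 4 were higher and 1 lower. *Plcg2*, a phospholipase C, was higher by 0.82 (SE 0.06, adjusted p = 2.43e-09) and *Inpp5d*, the inhibitory phosphatase SHIP1, by 0.59 (SE 0.09, adjusted p = 1.61e-05), whereas *Syk*, the kinase next to the receptor, was at -0.61 (SE 0.08, adjusted p = 7.23e-06). Of 11 genes of interleukin-5, interleukin-3 and GM-CSF receptor signalling, 1 was higher and 6 were lower, with a median of -0.35. The transcription factor genes *Stat5a* (-1.48, SE 0.18, adjusted p = 1.52e-06) and *Stat5b* (-1.07, SE 0.14, adjusted p = 2.99e-06) and the feedback inhibitor *Socs3* (-1.37, SE 0.18, adjusted p = 4.59e-06) were lower in TM+ DCs.

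In the pathway of stem cell factor, 1 of 10 genes was higher and 2 were lower. *Src*, a kinase, was at -0.87 (SE 0.08, adjusted p = 3.42e-08) and *Pik3r1*, a regulatory subunit of phosphoinositide 3-kinase, at -0.57 (SE 0.11, adjusted p = 0.000227), both lower in TM+ DCs like *Kit*, while the phosphatase *Ptpn6* was higher by 0.93 (SE 0.14, adjusted p = 1.48e-05). Among 14 GATA factors and their partners, 6 were higher and 1 was lower. *Nfe2*, a partner in red cells and platelets, was higher by 1.35 (SE 0.13, adjusted p = 5.75e-08), *Cebpe*, needed for the granules of neutrophils and eosinophils, by 1.33 (SE 0.16, adjusted p = 1.01e-06), and *Spi1*, the myeloid factor PU.1, by 0.64 (SE 0.08, adjusted p = 1.88e-06). Of 11 genes of erythroid cells and megakaryocytes, which also use GATA1, 1 was higher (*Itga2b*, 0.38, SE 0.12, adjusted p = 0.0199) and 1 lower (*Car2*, -0.88, SE 0.22, adjusted p = 0.0036). Of 11 stem and progenitor cell genes, which share *Kit* and *Gata2*, 3 were higher and 1 lower, with *Sox4* at 0.63 (SE 0.13, adjusted p = 0.000611), *Myb* at 0.83 (SE 0.18, adjusted p = 0.000862) and *Slamf1* at -1.48 (SE 0.23, adjusted p = 3.85e-05). Of 17 DC genes, 8 were higher and 7 lower, and of 11 lymphocyte genes none was higher and 1 was lower.

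**Figure D4:**
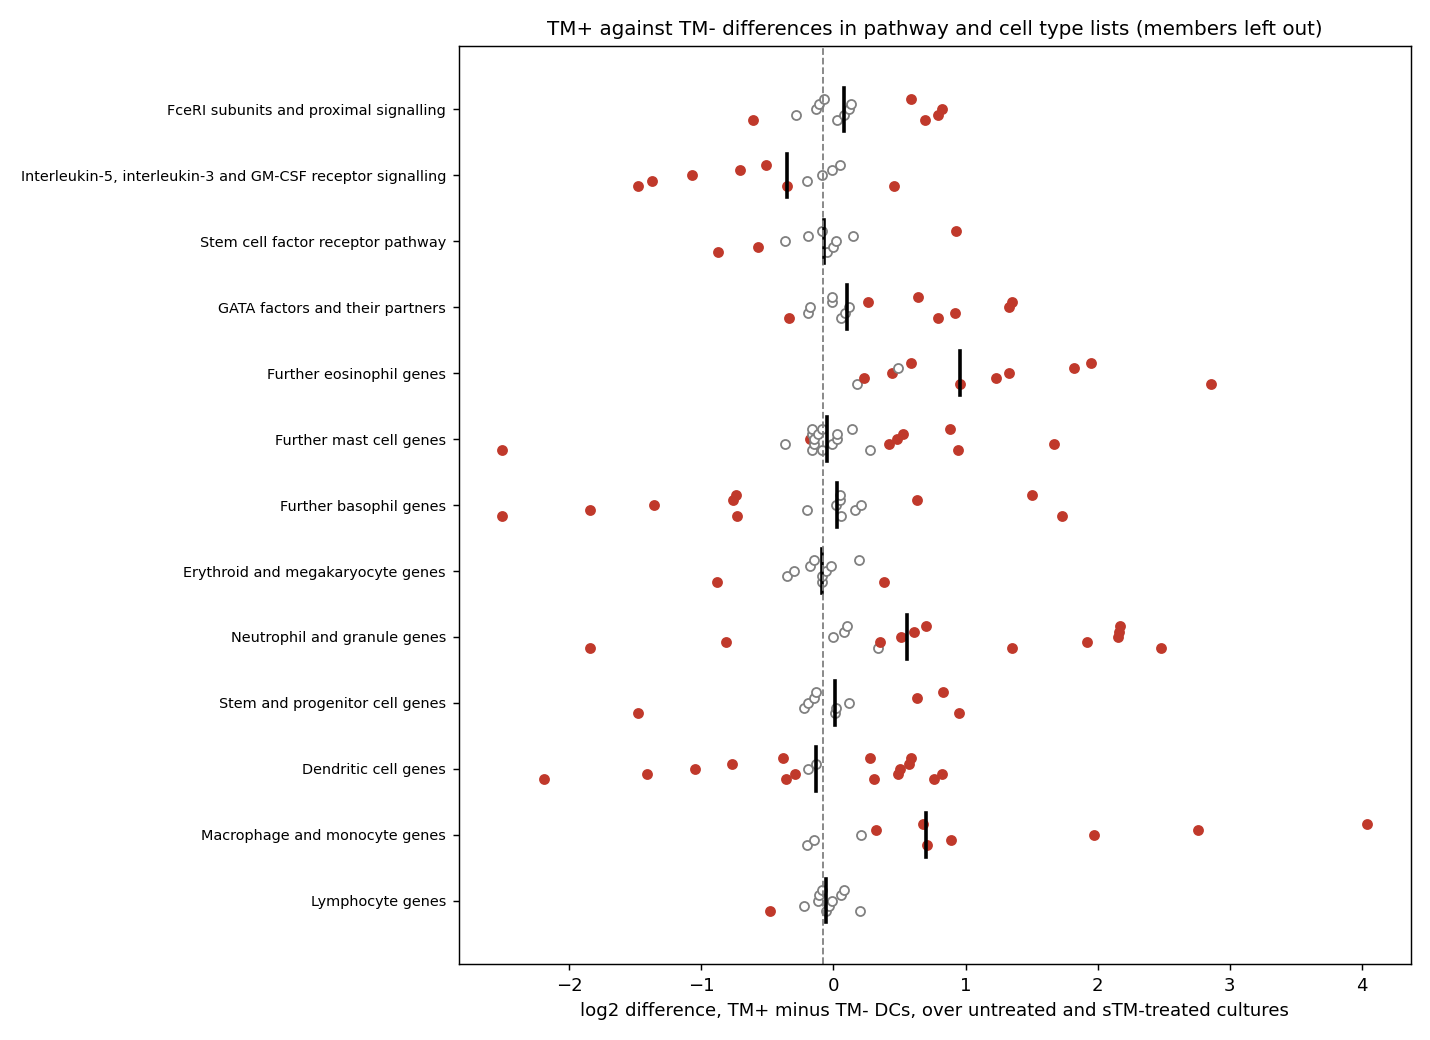
Fitted log2 difference, TM+ minus TM- DCs (horizontal axis), of each gene of 13 pathway and cell type lists with the 10 genes left out, filled where the adjusted p was under 0.05, with a black bar for the median of a list and a dashed line for the median of all genes (-0.08). The eosinophil list lay furthest to the right by its median (0.96), followed by the macrophage and monocyte list (0.70) and the neutrophil list (0.56), and the interleukin-5, interleukin-3 and GM-CSF receptor list furthest to the left (-0.35).

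For sTM-treated against untreated cultures, the mast cell list had 3 of 22 genes lower and none higher in TM+ DCs, beside 0.471% of all genes lower. *Hpgds* was at -2.02 (SE 0.19, 4.05-fold lower in sTM-treated cultures, adjusted p = 1.73e-05), with -2.67 within experiment 3 and -1.42 within experiment 4. It was also called over both fractions by limma (-1.35, SE 0.14, adjusted p = 8.26e-05). In TM- DCs alone *Hpgds* was not called (-0.68, SE 0.19), with -0.93 within experiment 3 and -0.41 within experiment 4. Its difference in unsorted DCs was 0.14 (SE 0.15). *Mcpt2* was at -2.73 (SE 0.45, adjusted p = 0.00809), with -4.57 within experiment 3 and -0.67 within experiment 4. The third was *Mcpt1*, its neighbour in the family of mast cell proteases, at -2.03 (SE 0.45, adjusted p = 0.0355), named after its values were seen. Both proteases stood out in 1 set of arrays. In TM+ DCs of experiment 3, *Mcpt2* was 4.48 in both arrays of sTM-treated cultures, against 8.88 and 9.22 in untreated ones, and in unsorted DCs of the same experiment it was 6.99 and 8.31 in sTM-treated cultures, against 5.56 and 5.73 in untreated ones. In experiment 3, sTM-treated cultures were thus lower for *Mcpt2* in TM+ DCs and higher in unsorted DCs, as they were for *Epx*. These differences of experiment 3 rest on its treatment labels as given. Among the eosinophil list, with a median of -0.05 in TM+ DCs, *F5* was higher by 1.38 in TM+ DCs of sTM-treated cultures (SE 0.23, adjusted p = 0.00885) and no gene was lower. The neutrophil list had 1 gene higher and 4 lower in TM+ DCs, with *Ltf* at -2.19 (SE 0.37, adjusted p = 0.009) and *Mmp9* at 2.03 (SE 0.35, adjusted p = 0.00928). The other lists had 1 called gene each for erythroid cells and megakaryocytes (*Ppbp*, 1.03), DCs (*Ciita*, -0.82) and macrophages (*C1qb*, -1.12), and none for the rest. In unsorted DCs, no gene of any list was called.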

How the data were processed

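Bone marrow-derived DCs of 6 groups were measured on 36 Affymetrix Mouse Gene ST arrays. Per the labels and the study's methods, RMA was run by the authors, which subtracts background, normalizes arrays and sums up the probes of a transcript cluster. Their deposited values were linear intensities and were put on the log2 scale here. Genome build, detection calls and whether all arrays were normalized together are not given in the sources used here. Symbols came from the platform annotation: of 35556 clusters, 21789 had 1 symbol, 1621 several and 12146 none, and per symbol the cluster with the highest mean was kept. Of 19938 genes, 19856 matched the RefSeq table (GRCm38.p6) by gene ID. Genes of the lists with no such cluster were not analysed here.

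The 20 sorted arrays were fitted with 4 group means and the 16 unsorted arrays alone, both with the experiment as a random block (correlations of 0.3957 and 0.3747), in limma 3.58.1 with statmod 1.5.0 and R 4.3.3. P-values were adjusted over all 19938 genes by the Benjamini-Hochberg method. Intervals are 95% intervals of the fit and, like every comparison here, are limited by the number of arrays. The fit was tested on simulated data. Array numbers were not used as pairs. Arrays of the same group and experiment correlated at 0.9403 to 0.9981 and none were duplicates.

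The 10 genes, the lists and the tests were chosen with earlier results of these data known. Besides the 10, up to 3 genes a list with the smallest adjusted p between TM+ and TM- DCs and up to 2 for treatment were named, and per gene the 3 with the highest Pearson correlation. Alternatives were the experiment as a fixed factor or left out, blocks by array number, centring on the 75th percentile, quantile normalization, a filter at the 25th percentile, trend and robust variances, all clusters, leaving out each array or experiment and, chosen after seeing the data, averaging arrays of 1 group and experiment. Python 3.11.15 with numpy 2.4.6, pandas 2.3.3, scipy 1.17.1 and matplotlib 3.10.9 was used for summaries and figures.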

Additional observations from a re-analysis of the deposited data

Results flagged for a closer look

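Among the 60 combinations of gene and group, none held an array that stood apart by Dixon's test. The test looks for 1 extreme array, and each experiment gave a group at least 2. Arrays of 1 experiment that stand apart together can therefore escape it, as did *Fcer1a* in untreated TM+ DCs of experiment 3. *Prg2* and *Cpa3* moved opposite ways under sTM in the fractions in every array of experiments 3 and 4. *Prg2* was lower in TM+ DCs of sTM-treated cultures (-1.0 and -1.40 within the experiments) and higher in TM- DCs (0.50 and 0.28), a mean difference of -1.59 between the fractions. *Cpa3* was lower in TM+ DCs (-0.59 and -0.79) and higher in TM- DCs (0.36 and 0.54), a mean difference of -1.15. The interaction across all sorted arrays did not pass limma's test for *Prg2* (-0.45, SE 0.70, adjusted p = 0.986) or *Cpa3* (-0.69, SE 0.46, adjusted p = 0.901). It takes in the sTM-treated arrays of experiment 2, which had no untreated counterpart. Without experiment 2, *Prg2* was at -1.59 (SE 0.51) and was still not called (adjusted p = 0.986). The share of all genes with such opposite moves is not given here.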

How the results depend on the processing

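The calls of *Epx* and *Kit* between TM+ and TM- DCs over all cultures held under every alternative tried. With 2 genes called higher and 1 lower as reported for each of the comparisons over all, untreated and sTM-treated cultures, leaving out single arrays gave 2 to 2 higher and 1 to 1 lower over all cultures, 1 to 2 higher and 0 to 1 lower in untreated cultures, and 1 to 2 higher and 1 to 1 lower in sTM-treated cultures. Over all cultures, 1 gene was called higher without experiment 4 and with arrays averaged, and 2 lower after centring on the 75th percentile. In untreated cultures with no experiment term, 1 gene, *Epx*, was called higher and 0 lower. Without experiment 4, 1 was also called higher and 0 lower there, but this gene was *Fcer1a*. The calls of *Epx* and *Prg2* were both lost. With arrays averaged, 0 were called higher and 0 lower. In sTM-treated cultures, 1 was called higher with no experiment term, with the replicate block by array number, with quantile normalization, with trend and robust variances and with all clusters tested, 0 were called higher without experiment 2 or 4, and 0 higher and 0 lower with arrays averaged. In TM+ DCs, 1 gene was called lower by sTM without experiment 4, against 0 as reported. The replicate block (*Prg2* in sTM-treated cultures 1.29, adjusted p = 0.0547) changed no other call of the 10 genes, and called 20 genes higher and 55 lower by sTM in TM+ DCs, against 76 and 94 as reported, where the alternatives ran from 0 to 386 higher and from 0 to 251 lower. Same-numbered arrays had correlated deviations, above 0.1, in 5 of 6 unsorted comparisons (0.03 to 0.75) and 5 of 13 sorted ones (-0.54 to 0.40), not in all. The correlations were 0.75, 0.56, 0.72 and 0.62 for unsorted arrays 1-1, 1-2, 1-3 and 1-4, so that these shared more than a number. The labels do not say what was shared, and the main fit of unsorted DCs leaves it out. In unsorted DCs the replicate block gave *Prg2* 0.67 (SE 0.29, adjusted p = 0.455) and *Epx* 0.61 (SE 0.34, adjusted p = 0.59), and called 0 genes higher and 4 lower. Between TM+ and TM- DCs, 3709 of all genes were higher and 3729 lower as reported, 3168 and 7174 after centring on the 75th percentile (median of all genes -0.16), 2655 and 2172 with no experiment term, 1484 and 985 without experiment 4, and 1473 and 938 with arrays averaged. Of single-gene values, none changed sign while called, 36 lost and 8 gained a call, and 15 uncalled ones moved by more than the spread between arrays. The cause of these changes was not tested, beyond the fewer arrays that leaving out or averaging gives. Low signal limits *Il5ra*, *Mcpt8*, *Fcer1a* and *Ms4a2*, which a filter at the 25th percentile of gene means left out. It may also limit *Gata1*, whose mean of 6.14 lay below the 95th percentile of olfactory and vomeronasal receptor genes (6.26).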
